A study of Mus musculus with 3 samples.

Results

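The cells described here are long-term stem cell-like cells of mouse bone marrow. They were found among LSK cells, a sort for Kit and Sca-1 on cells without lineage antigens, which takes in stem cells and multipotent progenitors. Members were chosen by their own measured counts: a cell was a member when it held at least 1 UMI (a unique molecular identifier, which stands for 1 captured transcript) in at least 4 of 8 genes and its summed count of Pf4, Itga2b, Gp1bb and Gp9 stayed below 5 per 10000 UMIs. The 8 genes were Procr, Mecom, Mmrn1, Sult1a1, Mllt3, Pdzk1ip1, Hlf and Tgm2. Of 21251 cells, 2390 met the rule.

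There was 1 single-cell RNA library for each of 3 genotypes, made with the Chromium 3' v2 chemistry. The DKO library came from Spop(D/D) Myd88(-/-) animals, the KO library from Spop(D/D) Myd88(+/+) animals and the WT library from Spop(+/+) Myd88(+/+) animals, so both deleted genotypes share Spop(D/D). The driver of the Spop deletion, any treatment, the strain, the age and the number of animals behind a library are not given in the sources used here. With 1 library a genotype there were no replicates, no test was made, and all intervals are exact 95% intervals that cover counting error only. Genotype and library cannot be told apart, and neither can genotype and sex in the DKO comparisons, since the X-inactivation transcript Xist stood at 1617 counts per 1000000 UMIs (CPM) in DKO members, 0 in KO members and 0.208 in WT members. In the members, Myd88 (chromosome 9, 119335934 to 119341411, GRCm38) stood at 5.12 CPM in DKO, 22.3 in KO and 14.8 in WT. Spop (chromosome 11, 95414080 to 95493406) stood at 76.2, 45.3 and 71.5 CPM in the same order, and 3' tags check its deletion only if the deleted part holds them, which is not given.

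Long-term haematopoietic stem cells can rebuild the whole blood system after transplantation and divide rarely. Much of their gene programme holds them in quiescence and keeps their adhesion to the marrow niche, and their daughters lose it as they take up proliferation and lineage genes. In mice, these cells are usually isolated by surface proteins such as EPCR and CD150 with little CD48, FLT3 or CD34. SPOP picks the proteins that a CUL3 ubiquitin ligase marks, and MyD88 is the adaptor that carries signals from Toll-like and interleukin-1 receptors.

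The rule genes cover several roles. Procr encodes EPCR, a surface receptor used to isolate stem cells, and Pdzk1ip1 a small membrane protein. Mecom and Hlf encode transcription factors of stem cell maintenance, and Mllt3 a chromatin reader that sustains stem cell genes. Mmrn1 encodes multimerin, which is shared with platelets and endothelium, Sult1a1 a sulfotransferase and Tgm2 a transglutaminase. Their values chose the members and are given as a description. Procr stood at 73.4 CPM in DKO members, 62.5 in KO members and 101 in WT members, against 11.2, 4.0 and 14.8 CPM in the other cells of each library. Mecom stood at 96.6, 66.2 and 112 CPM in members, against 22.95, 5.6 and 20.5 CPM in other cells. Hlf was at 232, 170 and 269 CPM in members, against 94.6, 25.6 and 98.5 CPM in other cells, with a UMI in 94.8%, 92.4% and 91.4% of members.

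The members of the 3 libraries did not carry the 8 genes in the same proportions. A cell needs only 1 UMI in a gene, so deeper cells can pass the rule at a lower CPM. In sum the 8 genes stood at 702 CPM in DKO members, 520 in KO members and 866 in WT members. Member depth had the reverse order, and its part in the levels above and below was not tested. Mmrn1 stood at 24.9 CPM in DKO members, 21.5 in KO members and 61.6 in WT members. Pdzk1ip1 stood at 94.6, 69.1 and 157 CPM, and Mllt3 at 80.7, 71.8 and 103 CPM. Tgm2 was close across the libraries, at 48.8, 43.7 and 45.5 CPM. Sult1a1 ran the other way, at 51.3 CPM in DKO members, 14.6 in KO members and 17.2 in WT members, with a UMI in 42.1%, 18.7% and 12.3% of them. Leaving Sult1a1 out, with at least 4 of the other genes required, gave a DKO share of 12.5% of cells.

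Members made up 14.6% of DKO cells (1191 of 8184, interval 13.8 to 15.3%), 5.10% of KO cells (251 of 4920, 4.50 to 5.75%) and 11.6% of WT cells (948 of 8147, 10.9 to 12.4%). A rule that counts detected genes depends on how many UMIs a cell has, and the libraries differed in depth: members had a median of 11405 UMIs a cell in DKO, 13514 in KO and 9028.5 in WT, against 12569, 17623 and 9279 in other cells. The KO share was lowest although the KO library was deepest.

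After each cell was thinned at random to 5500 UMIs, 4.72% of DKO cells (4.27 to 5.21%), 1.12% of KO cells (0.843 to 1.45%) and 5.41% of WT cells (4.91 to 5.95%) met the rule. Thinning left out 178 DKO, 0 KO and 683 WT cells with fewer UMIs. At 8000 UMIs the shares were 7.43% (6.83 to 8.08%), 2.03% (1.65 to 2.48%) and 6.23% (5.59 to 6.92%), with 1257, 251 and 2962 cells left out. The KO share was the lowest at each depth. DKO was above WT as deposited and at 8000 UMIs and below it at 5500 UMIs, so no order between DKO and WT is read from these shares. Summed over whole libraries, the 8 genes stood at 257 CPM in DKO, 90.9 in KO and 264 in WT.

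**Figure D1:**
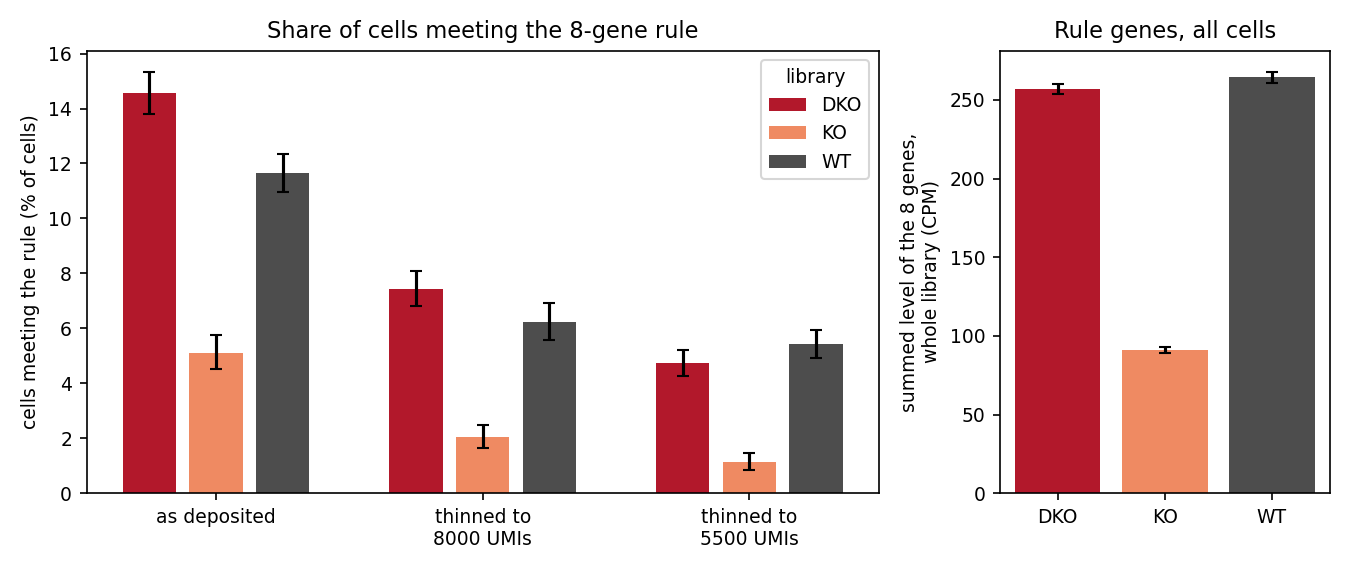
Left, share of cells meeting the 8-gene rule (% of cells, bars with exact 95% Clopper-Pearson intervals) in the DKO, KO and WT libraries, with counts as deposited, thinned to 8000 and thinned to 5500 UMIs a cell. Right, summed level of the 8 genes over all cells of each library (CPM, exact Poisson intervals). The KO library is lowest throughout, at 5.10%, 2.03% and 1.12% of cells and at 90.9 CPM.

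The same order of KO below both other libraries was seen among cells of like depth. Among cells of 8000 to 12000 UMIs, 17.1% of DKO, 8.71% of KO and 12.6% of WT cells met the rule. Among cells of 16000 to 20000 UMIs, 13.9%, 5.16% and 11.5% did. Above 20000 UMIs the shares were 9.56%, 2.12% and 7.18%. In each library the deepest cells had the smallest share, although deeper cells have more chances of a UMI in a given gene.

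The threshold falls within a continuum of cells. Of the DKO members, 630 had exactly 4 of the genes, 333 had 5, 153 had 6, 60 had 7 and 15 had all 8. The KO members numbered 157, 69, 16, 8 and 1 in the same order, and the WT members 526, 264, 108, 40 and 10. Just outside the rule, 1037 DKO, 299 KO and 972 WT cells had 3 of the genes. Mecom stood at 57.1 CPM in these DKO cells, 36.2 in the KO cells and 65.1 in the WT cells, and Procr at 36.7, 23.4 and 53.5 CPM. Cells that had 4 or more of the genes but passed the platelet limit numbered 182 in DKO, 30 in KO and 43 in WT.

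Few cells with B lineage or erythroid genes met the rule. Of 626 WT cells with a UMI in at least 3 of 5 B lineage genes, 8 met it (1.28%), and of 1097 KO cells with a UMI in at least 3 of 5 erythroid genes, 11 did (1.003%). Of cells with at least 3 of 5 neutrophil progenitor genes, 5.32% met it in DKO (185 of 3478), 3.79% in KO (135 of 3559) and 3.61% in WT (64 of 1773), all below the library's own share. Of the members, these cells were 15.5% in DKO (185 of 1191), 53.8% in KO (135 of 251) and 6.75% in WT (64 of 948). Of all cells they were 3478 of 8184 in DKO, 3559 of 4920 in KO and 1773 of 8147 in WT, a larger part in each library. The call needs only a UMI in each of 3 genes and does not make a member a neutrophil progenitor. Mllt3 was not particular to stem cell-like cells, since 62.4% of the KO erythroid cells had a UMI of it.

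Stem cell markers that the rule did not use were higher in the members. They are taken from stem cell lists chosen with earlier results of these data known. Because every gene was read in the same cells that the rule chose, contrasts of members with other cells are descriptions. Esam, an adhesion protein of stem cells and endothelium, stood at 47.0 CPM in DKO members, 47.7 in KO members and 46.4 in WT members, against 12.95, 5.66 and 11.2 CPM in other cells. Its level was thus nearly the same in the members of all 3 libraries. Slamf1, which encodes CD150, stood at 15.5, 14.6 and 8.61 CPM in members, against 6.65, 4.17 and 2.73 CPM in other cells.

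Rarer markers told the same way. Fgd5, a guanine exchange factor used to mark stem cells in reporter mice, had a UMI in 4.95% of DKO members, 8.37% of KO members and 8.65% of WT members, against 0.672%, 0.792% and 1.94% of other cells. Hoxb5, a homeobox gene used in the same way, had a UMI in 7.89%, 6.37% and 6.22% of members, against 2.95%, 1.07% and 1.0% of other cells. In 1097 KO erythroid cells the shares were 0.365% for Fgd5 and 0.273% for Hoxb5. At 5500 UMIs a cell, Fgd5 had a UMI in 2.65% of DKO, 5.45% of KO and 7.67% of WT members, against 0.433%, 0.473% and 1.33% of other cells, so the difference was seen at equal depth too.

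Cdkn1c encodes p57, a cell cycle inhibitor that keeps stem cells quiescent. It stood at 20.9 CPM in DKO members, 9.80 in KO members and 35.9 in WT members, against 6.47, 1.37 and 5.38 CPM in other cells. The ratio of members to other cells was 3.23 in DKO (2.81 to 3.71), 7.14 in KO (4.82 to 10.3) and 6.68 in WT (5.77 to 7.72). The KO members had the lowest p57 level of the 3 and still stood well above the other KO cells.

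Genes that mark multipotent progenitors past the stem cell stage did not behave alike in the libraries. Flt3, the receptor of lymphoid-primed progenitors, stood at 71.3 CPM in DKO members, 48.5 in KO members and 63.7 in WT members, against 112, 35.3 and 148 CPM in other cells. Members were thus lower than other cells in DKO and WT and higher in KO, with a KO ratio of 1.37 (1.18 to 1.60). The other KO cells had little Flt3. Cd34 gave ratios of 0.803 in DKO, 1.28 in KO and 0.740 in WT. Cd48, a surface protein that long-term stem cells lack, stood at 95.6, 125 and 49.9 CPM in members, against 193, 156 and 157 CPM in other cells.

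Across all genes, the members differed least from the other cells in DKO and most in KO. Genes were counted when their mean over the pair reached 50 CPM, with the rule genes left out, and called at 1.5-fold. In DKO 38 of 2731 genes were higher in members (1.39%) and 34 lower (1.24%). In KO 139 of 2522 were higher (5.51%) and 200 lower (7.93%). In WT 71 of 2545 were higher (2.79%) and 71 lower (2.79%). The all-gene median log2 ratio was -0.02 in DKO, -0.10 in KO and -0.05 in WT. Scaling by TMM, which centres the bulk of genes, shifted the KO ratios by 0.154 on the log2 scale toward lower and gave 86 higher and 415 lower, and it gave 29 higher and 41 lower in DKO. Of 2247 genes counted in all 3 libraries, 15 were higher in every one (0.668%) and 12 lower in every one (0.534%).

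Gng11, a G protein subunit, was among the genes higher in every library. It stood at 117 CPM in DKO members, 90.3 in KO members and 141 in WT members, against 54.2, 17.6 and 37.8 CPM in other cells. The level in members differed less between libraries than the level in other cells, and the ratio was largest in KO, at 5.13 (4.56 to 5.77), against 2.15 in DKO and 3.72 in WT. Ly6a, which encodes the Sca-1 antigen of the sort, stood at 186, 271 and 162 CPM in members, against 74.3, 77.9 and 81.4 CPM in other cells. Txnip, a brake on glucose uptake and an inhibitor of thioredoxin, stood at 287, 119 and 299 CPM in members, against 156, 40.2 and 151 CPM in other cells. Myct1, a membrane protein of endothelial and stem cells, stood at 170, 115 and 148 CPM, against 94.7, 25.3 and 66.7 CPM.

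Cd74, the invariant chain that escorts MHC class II proteins, stood at 151 CPM in DKO members, 90.9 in KO members and 112 in WT members, against 55.3, 25.6 and 57.1 CPM in other cells. The interferon-inducible membrane genes Ifitm1 and Ifitm3, the calcium-binding S100a6 and the serine protease inhibitor Serpina3g were also among the highest. Ifitm1 was the most unequal of these between libraries, at 894 CPM in DKO members, 2887 in KO members and 1506 in WT members, but other cells were ordered alike, at 522, 1621 and 708 CPM.

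The genes lower in every library were led by granule genes of neutrophil progenitors. Ctsg, which encodes cathepsin G, stood at 90.4 CPM in DKO members, 198 in KO members and 28.1 in WT members, against 611, 1744 and 206 CPM in other cells. The ratios of 0.148, 0.114 and 0.137 were nearly equal. Mpo, the myeloperoxidase gene, gave 0.151, 0.100 and 0.214. Plac8, a gene of myeloid and lymphoid progenitors, gave 0.444, 0.340 and 0.311. The chemokine Ccl9, the signalling adaptor Tyrobp, the lectin Lgals1, the glycoprotein Emb, the endoplasmic reticulum gene Sdf2l1 and Tm6sf1 were also among the lowest. In KO, cells of 8000 to 20000 UMIs gave log2 ratios of -0.33 for Emb, against -1.09, and -0.50 for Tm6sf1, against -0.66, so both were within 1.5-fold there, and in DKO Sdf2l1 was, at -0.47, against -0.65. For Ctsg and Mpo the ratios were lower still after thinning, with log2 values of -4.24 and -3.59 in DKO, -4.36 and -3.94 in KO and -3.86 and -3.29 in WT. Tyrobp, for example, was at 50.1 CPM in DKO members, 32.1 in KO members and 50.2 in WT members, against 125, 142 and 143 CPM in other cells.

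**Figure D2:**
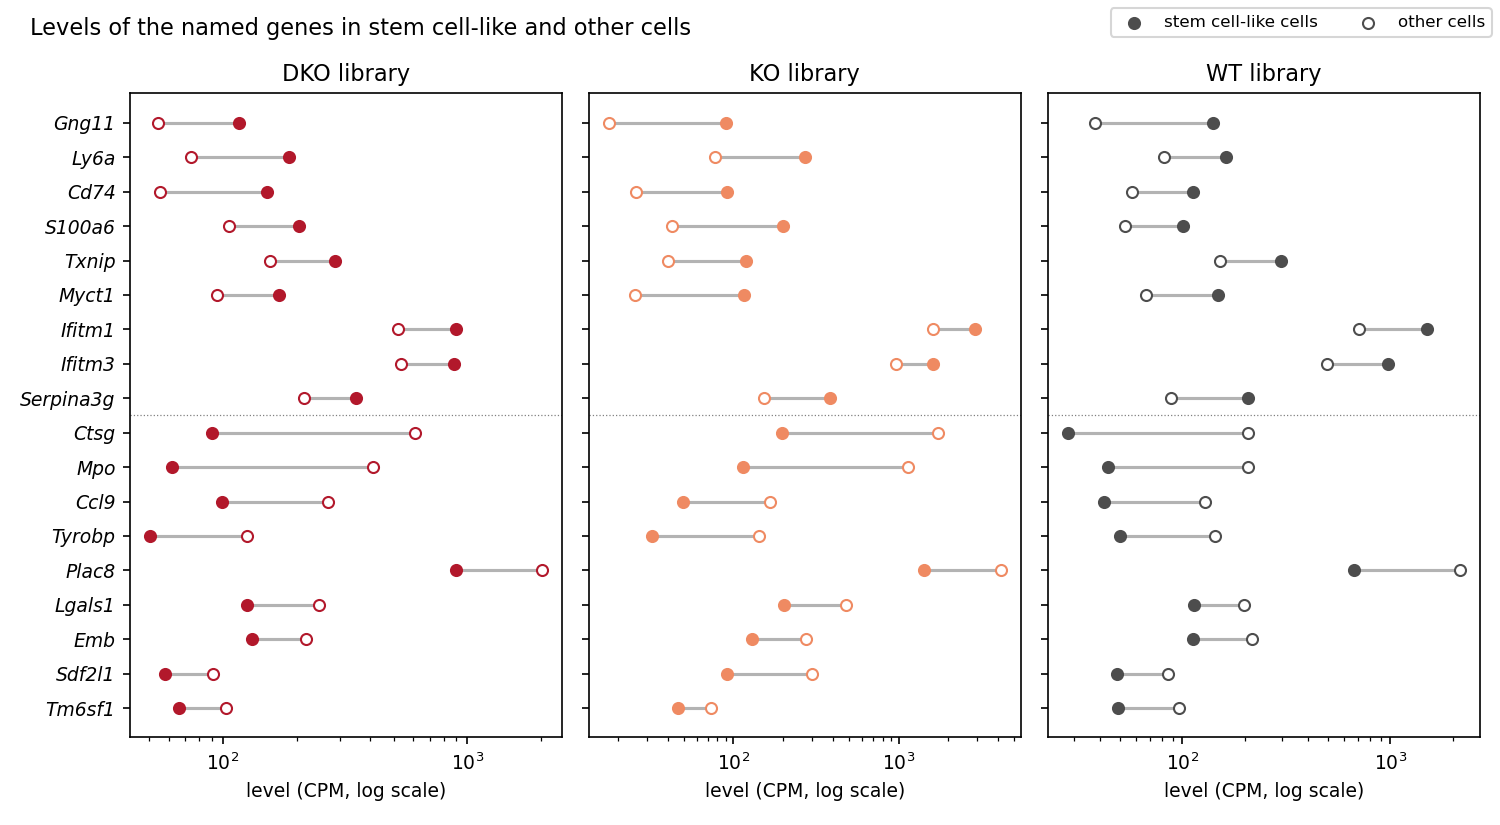
Levels (CPM, log scale) of the genes reported here as higher and as lower in members in every library, above and below the dotted line, with stem cell-like cells as filled and other cells as open points. Each panel is 1 library and the panels have their own axis ranges. The gap for Gng11 is widest in KO, at 90.3 against 17.6 CPM, and the gap for Ctsg is of like width in the 3 libraries.

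By gene list, stem cell surface and signalling genes stood above the other cells in every library. Genes of a list were measured where they averaged at least 50 CPM over the pair. Of the measured genes of this list, 8 of 18 were at least 1.5-fold higher in DKO, 14 of 16 in KO and 12 of 19 in WT, and none was lower, with median log2 ratios of 0.54, 1.28 and 0.89. Stem cell transcription factors and chromatin regulators had medians of 0.26, 0.66 and 0.44, with 2 of 13, 7 of 10 and 4 of 14 higher and none lower. Meis1, a homeobox factor of stem cell self-renewal, stood at 206 CPM in DKO members, 155 in KO members and 215 in WT members, against 130, 47.7 and 115 CPM in other cells. Gata2 had its smallest ratio in DKO, at 1.36, against 1.63 in KO and 2.06 in WT.

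Quiescence and growth brake genes had medians of 0.41 in DKO, 1.19 in KO and 0.29 in WT, with 2 of 10, 5 of 5 and 4 of 11 higher and none lower. MHC class II genes had medians of 0.84, 0.55 and 0.45, with 3 of 6, 1 of 3 and 2 of 4 higher. H2-Aa, the alpha chain of an MHC class II protein, stood at 150, 47.7 and 71.6 CPM in members, against 62.4, 34.5 and 33.8 CPM in other cells. Oxidative phosphorylation genes were slightly lower, with medians of -0.10, -0.33 and -0.13 and with 0, 4 and 1 of 36 at least 1.5-fold lower and none higher.

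Markers of other lineages were mostly below the other cells. Neutrophil progenitor markers had medians of -2.26 in DKO (6 of 7 lower), -3.23 in KO (8 of 8 lower) and -1.16 in WT (2 of 4 lower, 1 higher). After thinning, the WT median was 0.047, so its direction turned. Their summed level was 886 CPM in DKO members, 1379 in KO members and 787 in WT members, against 2336, 8283 and 1217 CPM in other cells. The protease gene Elane had a UMI in 7.14% of DKO members, 40.2% of KO members and 4.43% of WT members, and in 37.0% of KO erythroid cells, which should lack it, at medians of 13514 UMIs in KO members and 14882 in those erythroid cells. The share in KO members is close to that in those erythroid cells, and the part that free RNA has in either was not tested. B lineage markers were measured in WT alone, where all 6 were lower, with a median of -3.23. Of the endothelial and stromal markers none reached 50 CPM, and they summed to 86.4 CPM in DKO members, 69.7 in KO members and 90.8 in WT members. Of the 10 listed genes that are among those deposited, 1, 1 and 0 were at 0.

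The platelet limit of the rule removed cells with another profile. Compared with the stem gene cells above the limit, megakaryocyte markers were lower in members by medians of -1.43 in DKO, -2.04 in KO and -0.84 in WT, with 7 of 8, 6 of 7 and 4 of 5 at least 1.5-fold lower. That list includes the genes of the limit, so this describes the rule. Stem cell surface genes went both ways, with 6 higher and 4 lower of 22 in DKO, 7 and 3 of 21 in KO and 6 and 2 of 21 in WT, and medians of 0.06, 0.17 and -0.01. Over all genes, 85 were higher and 49 lower of 2750 in DKO, 127 and 251 of 2542 in KO, and 86 and 109 of 2557 in WT. The surface list summed to 8015 CPM in KO members and 5316 in KO cells above the limit. Against cells with 3 of the rule genes, members differed in few genes, with 11 higher and 11 lower of 2756 in DKO, 16 and 24 of 2519 in KO, and 10 and 18 of 2561 in WT.

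Within the thinned cells, levels of genes outside the rule differed with the number of rule genes detected. Cdkn1c stood at 4.79 CPM in DKO cells with none of the genes, 24.2 in those with 4 and 63.2 in those with 6 or more. In WT it stood at 2.57, 35.8 and 98.6 CPM at the same steps. In KO it stood at 1.37 with none, 19.7 with 4 (interval 5.36 to 50.3) and 12.1 with 5 (0.307 to 67.5), where 15 cells remained. Flt3 ran the other way in WT, from 184 CPM with none of the genes through 58.6 with 4 down to 12.3 with 6 or more, and in DKO at 140, 70.2 and 23.7 CPM. In KO it was flat up to 4 genes, at 45.2 CPM with none and 49.1 with 4.

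Cd48 and Ly6a had opposite courses. Cd48 stood at 226 CPM in DKO cells with none of the genes, 48.4 with 4 and 0 with 6 or more (46 cells, upper bound 14.6 CPM). In KO it stood at 167 with none, 131 with 3 and 63.9 with 4, and in WT at 179, 69.5 and 28.9. Ly6a stood at 63.6 CPM with none and 458 with 6 or more in DKO, and at 90.9 with none and 400 with 5 in KO. In WT it was highest at 5 genes, at 266 CPM, and stood at 200.3 with 6 or more. Cells with 4 of the genes, just inside the rule, had Ly6a at 235 CPM in DKO, 393 in KO and 244 in WT, above the cells with 3 in each library, at 197, 254 and 152 CPM.

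**Figure D3:**
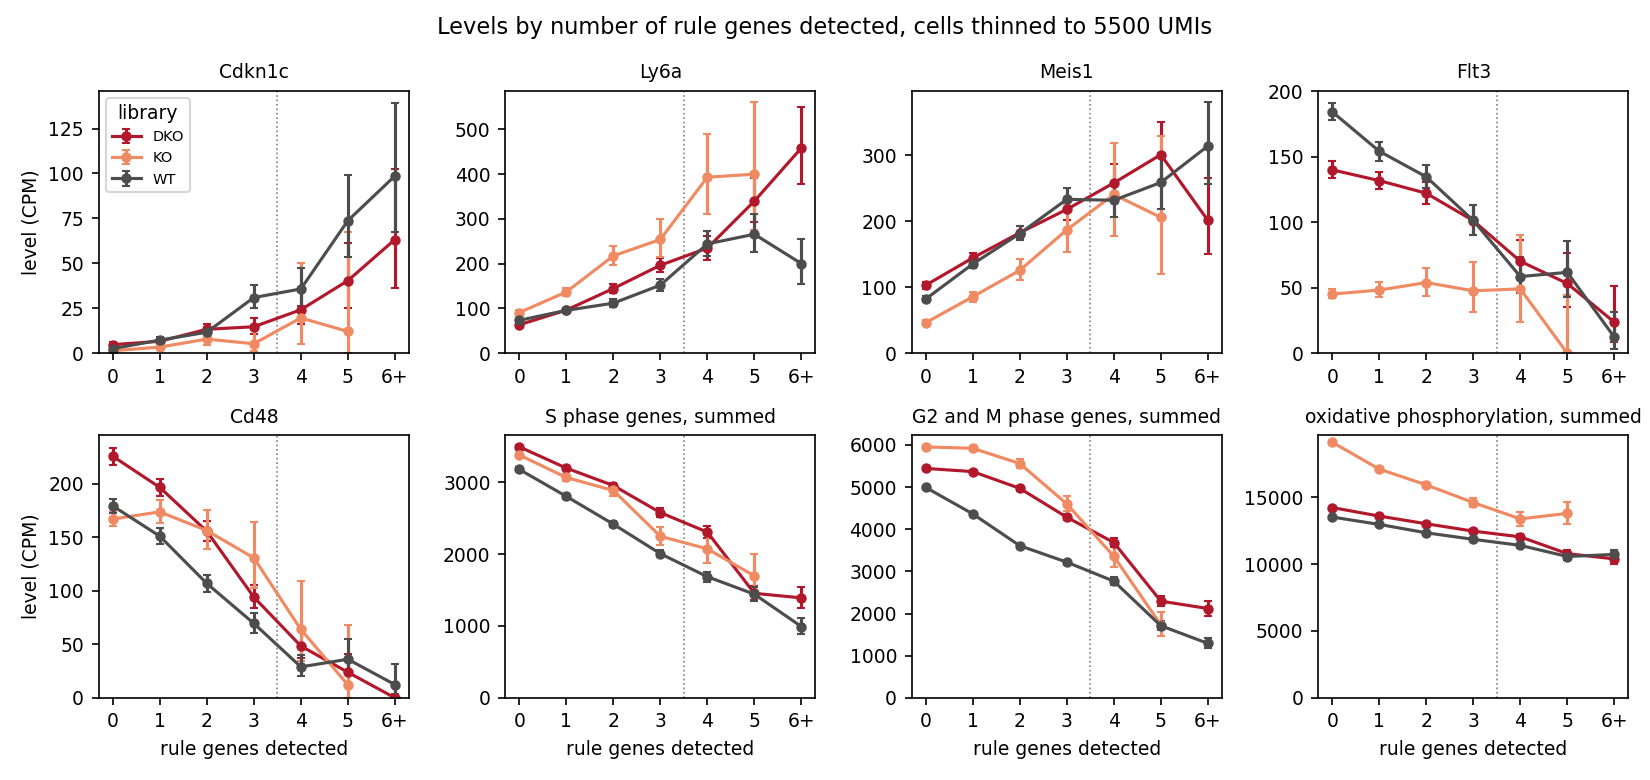
Levels (CPM, exact Poisson 95% intervals) of Cdkn1c, Ly6a, Meis1, Flt3, Cd48 and the summed S phase, G2 and M phase and oxidative phosphorylation genes against the number of rule genes detected, in DKO, KO and WT cells thinned to 5500 UMIs. The 3 KO cells with 6 or more genes are not shown. Members lie right of the dotted line. Cdkn1c and Ly6a are higher and Cd48 and the summed cell cycle lists lower at 4 rule genes than at none in each library; past 4 genes KO Cdkn1c and, at 6 or more, WT Ly6a do not keep that course, and Flt3 is flat up to 4 genes in KO.

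Cell cycle genes showed the clearest effect of depth. As deposited, S phase genes had a median log2 ratio of members to other cells of -0.12 in DKO, -0.28 in KO and -0.40 in WT, and G2 and M phase genes of -0.08, 0.11 and -0.32. With the rule applied to cells thinned to 5500 UMIs, the medians were -0.69, -0.79 and -0.98 for S phase and -0.77, -0.90 and -0.95 for G2 and M phase. Requiring 5 genes without thinning gave -0.22, -0.47 and -0.49 for S phase, which lies between. Mki67, a marker of cycling cells, had a UMI at 5500 UMIs in 14.3% of DKO members, 14.5% of KO members and 8.42% of WT members, against 31.5%, 41.6% and 27.3% of other cells.

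Cycling cells were those with over 1% of their 5500 UMIs from the S phase list or over 1% from the G2 and M phase list. By that measure 9.26% of DKO members were cycling (6.53 to 12.6%), 7.27% of KO members (4 of 55, 2.02 to 17.6%) and 4.95% of WT members (3.05 to 7.54%), against 18.7%, 15.4% and 13.03% of other cells. Members chosen as deposited, from the full depth, gave 17.2%, 18.7% and 8.77%. Those with at least 5 genes at 5500 UMIs gave 4.83%, 5.56% and 1.21%. The members' cycling share thus depended on the depth at which they were chosen, and the DKO and KO libraries, with the larger values as deposited, are the deeper ones.

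**Figure D4:**
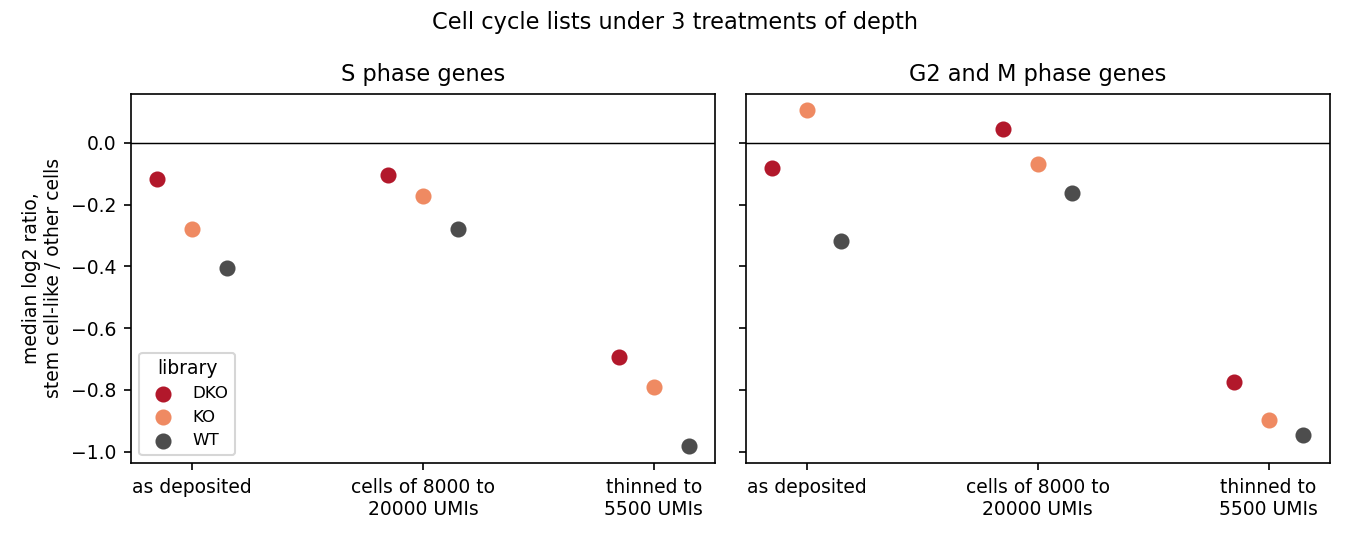
Median log2 ratio of stem cell-like to other cells for S phase genes (left) and G2 and M phase genes (right) in the DKO, KO and WT libraries, with counts as deposited, in cells of 8000 to 20000 UMIs and after thinning to 5500 UMIs with the rule reapplied. The points lie between -0.40 and 0.11 as deposited and between -0.69 and -0.98 after thinning.

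KO and WT members were compared to see how the stem cell-like cells differ where Spop is deleted and Myd88 is intact. Of 2537 genes, 88 were higher in KO members (3.47%) and 84 lower (3.31%). The clearest group was the immediate early genes, which cells switch on within minutes of a stimulus, dissociation included. Of 12 measured, 11 were at least 1.5-fold lower in KO members and none higher, with a median log2 ratio of -2.06 against 0.06 over all genes. In other cells the median was -2.07, so the difference was as large outside the stem cell-like fraction. It was -2.01 after thinning and -1.75 in cells of 8000 to 20000 UMIs.

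Fos, a subunit of the AP-1 factor, stood at 88.2 CPM in KO members and 787 in WT members, a ratio of 0.112 (0.100 to 0.125). Jun, its partner, stood at 126 against 570 CPM, and Egr1, a zinc finger factor, at 32.6 against 175 CPM. Klf2, a factor of quiescent lymphoid and endothelial cells, stood at 14.8 CPM in KO members and 135 in WT members, a ratio of 0.110 (0.0824 to 0.143). The antiproliferative gene Btg2 stood at 15.9 against 106 CPM and the phosphatase gene Dusp1 at 36.3 against 168 CPM. Fosb, Zfp36, Ier2 and Klf6, all rapidly induced genes, completed the 10 lowest. After thinning, the log2 ratio was -3.97 for Fos, against -3.16 over all members, -3.69 for Btg2, against -2.74, and -4.07 for Zfp36, against -2.17.

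Quiescence and growth brake genes followed, with 9 of 10 measured lower in KO members, none higher and a median of -1.05, against -1.82 in other cells. The list holds Klf2, Btg2 and Klf6, named above among the lowest genes, at log2 ratios of -3.19, -2.74 and -1.92. Among its other measured genes, Txnip was at -1.32, Rgs1 at -1.11, Tsc22d1 at -0.89, Pik3ip1 at -0.59 and Tsc22d3 at -0.58. Txnip stood at 119 CPM in KO members and 299 in WT members, and Cdkn1c at 9.80 against 35.9 CPM, a ratio of 0.273 (0.189 to 0.384). The ratios of Cdkn1c between libraries, here and below, are at full depth only. Stem cell transcription factors had a median of -0.37 in members (4 of 14 lower, none higher) and -0.66 in other cells (7 of 11 lower). Stem cell surface genes had a median of -0.50 in members, with 5 higher and 7 lower of 23, and -0.93 in other cells. Kit, the stem cell factor receptor of the sort, stood at 58.5 CPM in KO members and 128 in WT members, while Ly6a stood at 271 against 162 CPM.

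The genes highest in KO members included myeloid genes with their own values in other cells. Ctsg was 7.05-fold higher (6.12 to 8.13), at 198 against 28.1 CPM, and 8.47-fold higher in other cells. Mpo was 2.58-fold higher in members and 5.51-fold in other cells, and the metallothionein gene Mt1 4.41-fold and 20.4-fold. Neutrophil progenitor markers summed to 1379 CPM in KO members and 787 in WT members, and to 8283 and 1217 CPM in other cells. The part that free RNA from these abundant transcripts has in the members' values was not tested. In cells of 8000 to 20000 UMIs, the members' log2 ratio was 1.65 for Ctsg, against 2.82 over all members, -0.072 for Mpo, against 1.37, and 1.36 for Mt1, against 2.14. For Mt1 it was 1.07 with at least 5 rule genes and 3.12 with at least 3.

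Other genes differed more in the members than outside them. Vldlr, the very low density lipoprotein receptor, stood at 90.9 CPM in KO members and 22.3 in WT members, a 4.07-fold difference (3.42 to 4.85), and was 1.43-fold higher in other KO cells. Its log2 ratio of 2.03 in members was 2.76 with at least 5 rule genes. Cd48 stood at 125 CPM in KO members and 49.9 in WT members, 2.50-fold higher (2.20 to 2.84), while other cells had a ratio of 0.993. Its log2 ratio in members, 1.32, was 0.71 after thinning and 0.95 in cells of 8000 to 20000 UMIs. Rtp4, an interferon-stimulated gene, was 2.43-fold higher in members and 1.21-fold in other cells. S100a6 was 1.97-fold higher in KO members, and other KO cells had a ratio of 0.797. The difference between members and other cells in these ratios has no replicate behind it and was not tested.

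Isg15, an interferon-stimulated ubiquitin-like protein, was 2.59-fold higher in KO members and 2.45-fold in other cells. Of 9 measured interferon-stimulated genes, 4 were higher in KO members and none lower, with a median of 0.40, against 0.30 in other cells. Ube2c, a ubiquitin-conjugating enzyme of mitosis, was 2.44-fold higher, the fatty acid receptor Ffar2 2.51-fold and Plac8 2.11-fold. The log2 ratio of Ube2c, 1.28, was 0.35 in cells of 8000 to 20000 UMIs and so below 1.5-fold there, and that of Ffar2, 1.33, was 2.27 after thinning. G2 and M phase genes had a median of 0.66, with 16 of 27 higher in KO members. The median was 0.30 after thinning and 0.09 in cells of 8000 to 20000 UMIs, so it shrank when depth was matched. Oxidative phosphorylation genes had a median of 0.31 in members and 0.52 in other cells.

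DKO and KO members were compared to see how the stem cell-like cells differ where Myd88 is deleted on top of Spop(D/D). Of 2653 genes, 131 were higher in DKO members (4.94%) and 37 lower (1.39%), with an all-gene median log2 ratio of 0.07. TMM shifted these ratios by 0.101 toward lower and gave 88 higher and 73 lower. Immediate early genes were higher in DKO members, with 9 of 11 at least 1.5-fold higher, none lower and a median of 1.05, against 1.35 in other cells. Fos stood at 499 CPM in DKO members and 88.2 in KO members, a ratio of 5.66 (5.07 to 6.33), and Klf2 at 86.0 against 14.8 CPM, a ratio of 5.80 (4.44 to 7.72). Dusp1 was 3.57-fold higher. After thinning, the log2 ratio of Fos was 3.10, against 2.50, and with at least 5 rule genes that of Dusp1 was 2.49, against 1.84.

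Quiescence and growth brake genes were higher in DKO members in all 9 measured, Klf2 included. Their median was 1.22, against 1.63 in other cells. Cdkn1c stood at 20.9 CPM in DKO members and 9.80 in KO members, a ratio of 2.13 (1.51 to 3.08), and Txnip at 287 against 119 CPM. MHC class II genes were higher in all 6 measured, with a median of 0.75, and MHC class I genes in 5 of 12, with a median of 0.52. H2-Aa stood at 150 CPM in DKO members and 47.7 in KO members, 3.14-fold higher (2.70 to 3.68), and was 1.81-fold higher in other cells. Rgs1, a brake on chemokine receptor signalling, was 2.85-fold higher in members and 8.06-fold in other cells, and its log2 ratio in members, 1.51, was 0.83 after thinning. Stem cell transcription factors had a median of 0.32 in members, with 2 of 14 higher, against 0.71 in other cells.

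The genes named as lowest in DKO members were Car1, Ms4a3, Ifitm1, Wfdc17 and Vldlr. Car1, an erythroid carbonic anhydrase, stood at 9.25 CPM in DKO members and 94.0 in KO members, a ratio of 0.0984 (0.0803 to 0.120), and had a ratio of 0.287 in other cells. Its log2 ratio in members was -3.35, against -1.12 with at least 5 rule genes, -2.37 after thinning, -2.63 in cells of 8000 to 20000 UMIs and -2.72 without the highest doublet scores. Ms4a3, a gene of granulocyte and monocyte progenitors, had a ratio of 0.217 in members and 0.132 in other cells. Its log2 ratio of -2.20 in members became -1.02 after thinning, -1.03 in cells of 8000 to 20000 UMIs, -1.26 with at least 5 rule genes and -1.46 without the highest doublet scores. Erythroid progenitor markers summed to 1194 CPM in DKO members, 1466 in KO members and 1050 in WT members, and neutrophil progenitor markers to 886, 1379 and 787 CPM. What part cells of those lineages or their free RNA have in these values was not tested. Ifitm1 was at 0.310 of the KO level, the secreted Wfdc17 at 0.339 and Vldlr at 0.341 (0.296 to 0.393), and Vldlr had a ratio of 0.928 in other cells.

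DKO and WT members were closer than the KO pairs for most stem cell lists. Of 2659 genes, 98 were higher in DKO members (3.69%) and 32 lower (1.2%), with an all-gene median log2 ratio of 0.13 that the list medians should be read against. TMM gave 65 higher and 42 lower. Stem cell transcription factors had a median of -0.09 (1 of 14 lower), stem cell surface genes of -0.18 (4 of 21 lower) and quiescence and growth brakes of 0.00 (3 of 11 lower). No gene of these lists was at least 1.5-fold higher. Single genes still differed: Kit stood at 78.3 CPM in DKO members and 128 in WT members, and Cdkn1c at 20.9 against 35.9 CPM, a ratio of 0.582 (0.498 to 0.680).

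Immediate early genes were lower in DKO members than in WT members, with 10 of 14 lower, none higher and a median of -0.64, against -0.71 in other cells. DKO thus lay between KO and WT for this list, in members as in other cells. Fosb stood at 69.5 CPM in DKO members and 184 in WT members, Zfp36 at 70.5 against 162, Egr1 at 76.9 against 175 and Btg2 at 48.0 against 106. Ltb, a lymphotoxin gene, stood at 76.1 against 177 CPM, a ratio of 0.430 (0.399 to 0.464). It is on both the lymphoid-primed and the stem cell surface list.

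Higher in DKO members than in WT members were Ctsg at 3.21-fold, Ccl9 at 2.34-fold and S100a6 at 2.03-fold, with ratios in other cells of 2.97, 2.10 and 1.99. The log2 ratio of Ctsg in members, 1.68, was 1.10 after thinning and 1.01 with at least 5 rule genes. The MHC class II genes were higher in 3 of 6 measured, with none lower and a median of 0.76, against 0.27 over 3 measured genes in other cells. H2-Eb1 stood at 80.3 CPM in DKO members and 33.2 in WT members, 2.42-fold higher (2.14 to 2.74), and H2-Aa was 2.09-fold higher. S phase genes had a median of 0.41 (6 of 24 higher) and G2 and M phase genes of 0.57 (10 of 25 higher). After thinning, the G2 and M phase median was 0.31, and in cells of 8000 to 20000 UMIs it was 0.22.

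**Figure D5:**
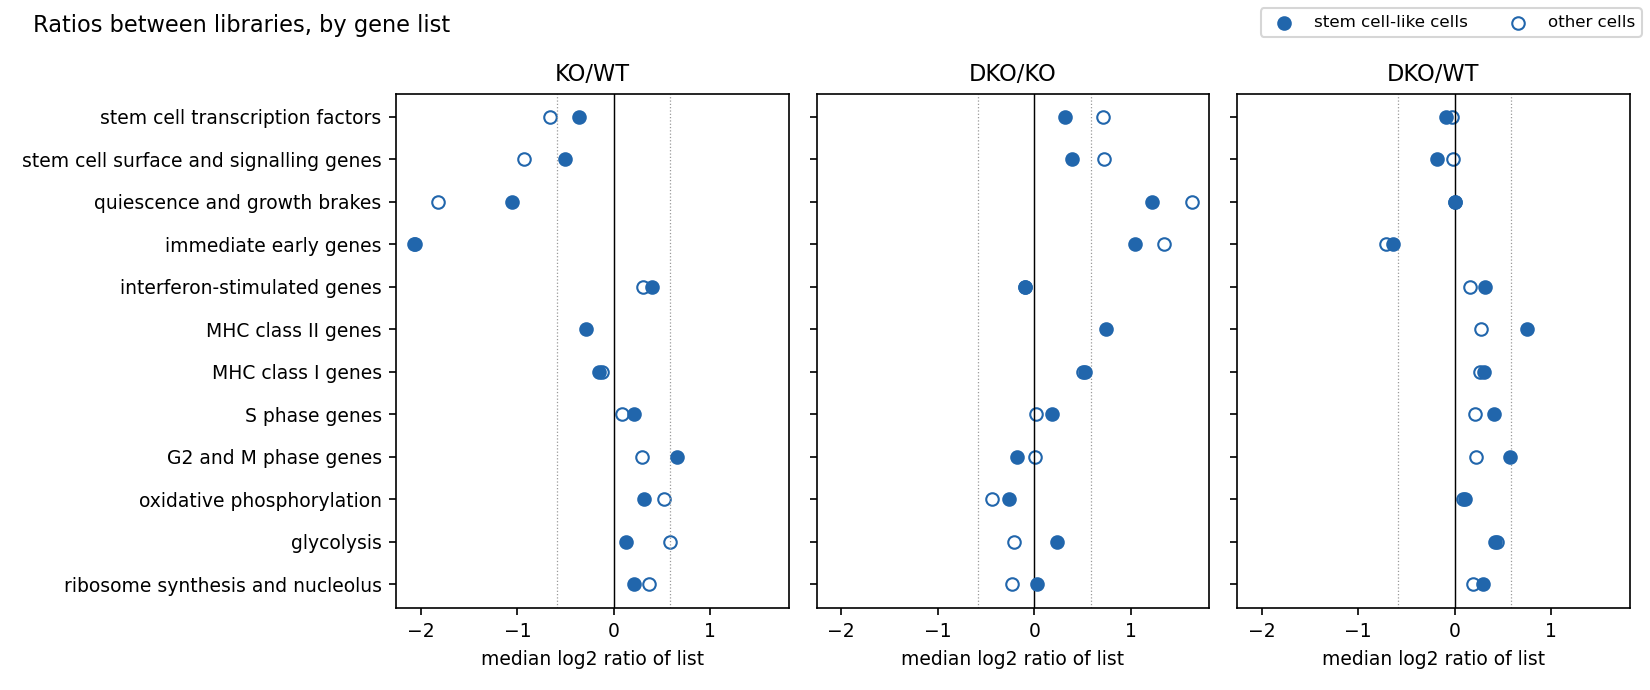
Median log2 ratio between libraries for each gene list, in stem cell-like cells (filled) and other cells (open), with panels for KO/WT, DKO/KO and DKO/WT and dotted lines at 1.5-fold. Lists with fewer than 3 measured genes in other cells have no open point. Immediate early genes are near -2.06 in KO/WT and the quiescence list near -1.05, while in DKO/WT the stem cell and quiescence lists lie near 0.

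Gene numbers at equal depth were close for members and other cells. At 5500 UMIs, members had a median of 2030 genes in DKO, 1924 in KO and 1913 in WT, against 1992, 1883 and 1911 in other cells. The median mitochondrial share of members was 2.73%, 2.94% and 3.12%. The libraries shared 54 barcodes between DKO and KO, 83 between DKO and WT and 46 between KO and WT, of which 2, 1 and 2 were members in both. Among the cells with the highest doublet scores, 129 of 536 were members in DKO, 18 of 194 in KO and 93 of 531 in WT. These are 10.8%, 7.17% and 9.81% of the members, and 24.1%, 9.28% and 17.5% of the highest-scoring cells, above the members' shares of all cells of 14.6%, 5.10% and 11.6%. The part of doublets in the members was not tested beyond leaving these cells out.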

How the data were processed

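Sorted LSK cells were profiled in 3 libraries, 1 each for DKO, KO and WT. The authors deposited whole-number UMI counts for 14721 genes in the 21251 cells they kept, and these counts were the values used; a deposited normalized table was not used. Per the submitters' processing notes, the build was mm10 and the tools were Seurat, Cell Ranger and bcl2fastq, whose versions are not given in the sources used here. The members, gene lists, naming rules and alternatives were chosen with earlier results of these data known.

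Counts were summed per library over members and over other cells (python 3.11.15, scanpy 1.11.5) and divided by the group's UMI total to give CPM. Member totals were 15027090 UMIs in DKO, 3774771 in KO and 9635734 in WT, so that 3 counts equal 0.200, 0.795 and 0.311 CPM. Ratios carry exact conditional binomial intervals, levels exact Poisson intervals and shares Clopper-Pearson intervals, all at 95%. They cover counting error only. Genes were counted at a mean of at least 50 CPM over the pair and called at 1.5-fold. Cells were thinned without replacement to 5500 or 8000 UMIs, the rule was reapplied and shallower cells were left out. Comparison cells of other lineages had a UMI in at least 3 of 5 marker genes.

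The genes named from the contrast of members with other cells were the 10 highest and 10 lowest counted in every library, ranked by the library with the ratio nearest to 1. Between libraries they were the 10 highest and lowest for KO/WT and 5 each for the DKO pairs, ranked by the nearer interval bound, without predicted, ribosomal, mitochondrial, globin, sex-linked and rule genes. Lists added up to 4 genes each. Some genes that these rules pick are not reported here. Other genes named were chosen after their values had been seen. Scrublet called 0.0489% of DKO, 0.894% of KO and 0.147% of WT cells, too few to be usable in DKO and WT, so doublets were kept and removing the highest scores was an alternative. Other alternatives were TMM (edgeR 4.0.16) and size-factor scaling (DESeq2 1.42.0), other rule thresholds, other levels, equal weight per cell and matched depth. Gene positions are from GENCODE vM21 on GRCm38. The calculations were tested on simulated data.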

Additional observations from a re-analysis of the deposited data

Results flagged for a closer look

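Lymphoid-primed markers moved in opposite directions in KO and WT. Members stood above other cells in KO, with a median log2 ratio of 0.83 over 5 measured genes, and below other cells in WT, with a median of -0.83 over 10 measured genes. The measured genes are not the same in both libraries, and the difference was not tested. In summed level the list stood at 609 CPM in KO members and 456 in other KO cells, and at 886 CPM in WT members and 1819 in other WT cells. After thinning to 5500 UMIs the medians were 0.71 in KO and -1.08 in WT.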

How the results depend on the processing

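No paired analysis was possible because each genotype has 1 library. Shares moved with the rule and depth: in DKO, KO and WT they were 27.2%, 11.2% and 23.6% with at least 3 rule genes, 6.85%, 1.91% and 5.18% with at least 5, 4.72%, 1.12% and 5.41% at 5500 UMIs (4.77%, 1.34% and 5.64% with a second random draw) and 7.43%, 2.03% and 6.23% at 8000 UMIs. The DKO share was 16.8% with no platelet limit and 12.5% without Sult1a1, an alternative chosen after seeing the data. KO was lowest in each. For members against other cells, numbers of genes higher or lower moved as follows. TMM gave 86 higher and 415 lower in KO, and size factors 81 and 426. Requiring 5 genes gave 65 higher in DKO and 361 lower in KO, and requiring 3 gave 113 lower in KO. Cells of 8000 to 20000 UMIs gave 81 higher and 74 lower in KO. Thinning gave 101, 271 and 113 higher and 152, 473 and 204 lower in DKO, KO and WT. With no minimum level there were 2328, 4111 and 2591 higher and 828, 1157 and 1110 lower. Between libraries, TMM gave 73 lower for DKO/KO and 65 higher for DKO/WT, and size factors 87 higher and 75 lower for DKO/KO. Cells of 8000 to 20000 UMIs gave 58 higher for DKO/WT, 29 higher and 42 lower for KO/WT and 24 lower for DKO/KO. Thinning gave 318 higher and 118 lower for DKO/KO and 186 higher and 157 lower for KO/WT. With no minimum level DKO/KO had 2012 higher and 2168 lower, DKO/WT 1547 and 1881, and KO/WT 2079 and 1868. Fewer cells and UMIs enter the thinned fits, and the cause of the other moves was not tested. Directions turned in 4 cases: neutrophil progenitor markers of members against other cells in WT were at 0.047 after thinning, erythroid progenitor markers of KO/WT members were at -0.27 with at least 5 rule genes and -0.23 without the highest doublet scores, and Mpo of KO/WT members was at -0.072 in cells of 8000 to 20000 UMIs. The KO members, at 251 cells, set the widest intervals.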
